A study of Mus musculus with 6 samples.

Results

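Laminins are the trimeric glycoproteins of basement membranes, and the genes described here encode 8 of their chains. They were chosen by gene symbol: Lama2, Lama3, Lama4 and Lama5 (alpha chains), Lamb1, Lamb2 and Lamb3 (beta chains) and Lamc1 (a gamma chain). The array read them with 16 probe sets, each assigned to 1 gene, of 45037 tested, and they are 8 of the 18193 genes measured. The tumours were grown from GLMT1 cells, 1 cell line whose name stands for GRS/A Lung Metastasis Tumor 1, injected below the skin of the back of male GRS/A hosts. The host mice either carried tenascin-C (WT, strain GRS/A, 3 tumours) or were tenascin-C-deficient (TNKO, strain GRS/A-TgH(TnC), 3 tumours). All 6 hosts received the same cells, entered the experiment at 8 weeks of age and are labelled as 10 weeks old, and the labels describe the 3 tumours of a group as biological replicates. The labels describe the hosts, and not the tumour cells, as deficient. The comparison addresses how host tenascin-C bears on gene expression in the tumour.

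A laminin trimer is built inside the cell from an alpha, a beta and a gamma chain that wind into a coiled coil. It is then secreted, and some laminins polymerise on the cell surface. The alpha chain carries the globular domains that bind integrins and dystroglycan, so the alpha chain largely sets which cells a laminin anchors. Trimers are named by their chain numbers. The alpha2 trimers belong to muscle and peripheral nerve, the alpha4 trimers to vessels, fat and other mesenchymal tissue and the alpha5 trimers to most epithelia and mature vessels.

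The deposited values are on a scale taken as log2, and they differ very little between tumours: the median within-group SD of all probe sets was 1.78 millionths of a log2 unit. Values by tumour are therefore given as deviations from the mean of the 6 tumours, in millionths of a deposited log2 unit, with the level itself given once. A deviation of this kind cannot be read as a fold change in RNA. Differences are TNKO minus WT and are also given in residual SDs, the SD of that probe set within the groups. Tests are by limma, and p-values were adjusted over all 45037 probe sets by the method of Benjamini and Hochberg. The number of arrays limits the precision: 3 tumours against 3 cannot give an exact two-sided permutation p below 0.1.

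Array medians, when rounded, were 6.57 in each tumour. Subtracting them moved the median difference over all probe sets from 0.0997 to -764 millionths. That is larger in size than the difference of any laminin probe set as deposited. Tnc, the gene altered in the hosts, had levels of 9.01, 9.04 and 8.995 in WT and 8.80, 8.82 and 8.83 in TNKO tumours in its brighter probe set, a difference of -0.20 (SE 0.0164, limma adjusted p = 0.0537). Hair shaft genes set TNKO tumour 3 apart from the rest, with Krtap8-1, a protein of the hair shaft, at 12.60 there and at 5.95 to 6.15 elsewhere. The 12 skeletal muscle markers were all lower in the TNKO mean, with the actin gene Acta1 at 7.54 and 7.58 in TNKO tumours 1 and 2 and at 8.18 to 8.37 in the other 4. Epithelial keratin genes ranged from bright to dim, with Krt8 at 11.45 and Krt7 at 9.17 but Krt5 at 6.78 and Krt19 at 6.07 (the 25.3rd percentile of all probe sets). In 16 of the 18 bacterial and phage controls added for hybridisation, every TNKO tumour lay above every WT tumour. All 18 were higher in the TNKO mean, by 0.173 to 61.4 millionths. In 14 of the 16 laminin probe sets the difference was no larger in size than the greatest of those; the exceptions are Lama4 1424807_at and Lamb1 1451241_at.

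No laminin probe set passed the limma threshold of an adjusted p of 0.05: the count was 0 of 16, where 0.175% of all probe sets passed. At an unadjusted p under 0.05 there were 2 of 16, Lama3 1444860_at (higher) and Lamb1 1451241_at (lower), against 20.3% of all probe sets. The TNKO and WT tumours did not overlap in the same 2 probe sets, against 28% of all probe sets, so neither share lies above the background. Of the 16 probe sets 7 were lower and 9 higher in the TNKO mean, with a median difference of 0.302 residual SDs, beside 0.173 over all probe sets. Read from the brightest probe set of each gene, 3 of 8 chains were lower and 5 higher, and 42.4% of all genes were lower. Quantile normalization and subtraction of array medians put all 8 below 0, as they did 98.5% and 99.2% of all probe sets. All directions given here, of laminin, partner and marker genes, are those of the values as deposited.

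**Figure D1:**
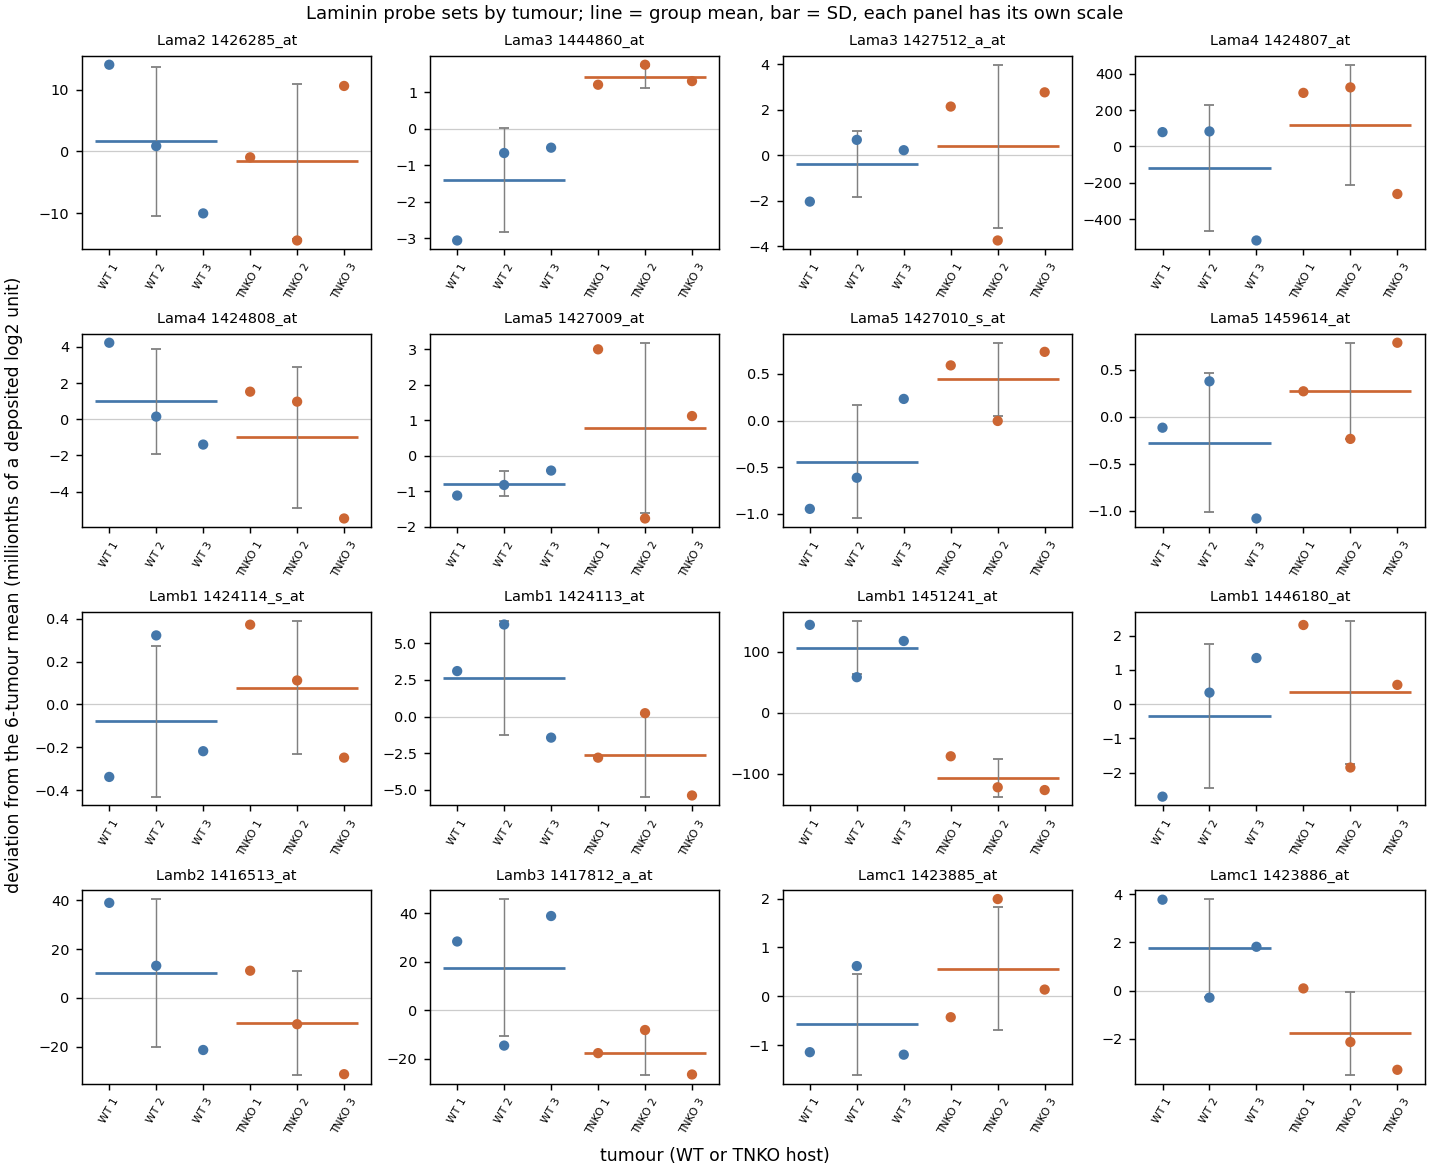
Each panel shows 1 laminin probe set, with the tumour on the horizontal axis and its deviation from the 6-tumour mean, in millionths of a deposited log2 unit, on the vertical axis. Points are tumours (blue WT hosts, orange TNKO hosts), horizontal lines are group means and bars are SDs (n = 3 each). The groups are apart in Lama3 1444860_at (higher in TNKO) and Lamb1 1451241_at (lower in TNKO) as deposited, and overlap in the other 14. With either scaling of the arrays Lama3 1444860_at turns to lower.

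The level of each chain was placed by its percentile among all probe sets, which shows whether a probe set is bright or dim on this array. Probe sets differ in how well they bind, so these percentiles do not rank the chains by amount of RNA, and no detection calls were used here. Lamb1, which encodes the beta1 chain of most laminins, had its brightest probe set at a level of 11.24, the 98.6th percentile. Lamc1, the gamma1 chain shared by nearly all trimers, stood at 9.10 (the 90.3rd percentile). Among the alpha chains Lama4 stood at 8.17 (the 81.5th percentile), Lama5 at 7.58 (the 73.4th), Lama2 at 7.47 (the 71.6th) and Lama3 at 6.83 (the 58.3rd). Lamb2, the beta2 chain of muscle synapses, kidney and vessels, stood at 7.17 (the 66.2nd percentile) and Lamb3, the beta3 chain of skin, at 6.81 (the 57.8th). Of the chains outside the 8, the brightest probe set of Lama1, the embryonic alpha chain, lay at 6.01 (the 21.7th percentile) and that of Lamc3 at 6.22 (the 33.9th). Probe sets for a bacterial tryptophan gene, a control with no mouse target, lay at 5.52 to 5.87.

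These levels bear on the possible trimers only as far as every chain of a trimer has a probe set above the table's median level of 6.57. Of 8 known trimers considered, 7 met that: laminins 211 and 221 with alpha2, laminin 311 with alpha3, laminins 411 and 421 with alpha4, and laminins 511 and 521 with alpha5. Laminin 111 did not, since Lama1 lay below the median. Dimmer probe sets of Lama3 (1427512_a_at), Lama4 (1424808_at), Lama5 (1459614_at) and Lamb1 (1446180_at) lay below the median, at the 23.9th, 29.1st, 23.4th and 46.7th percentiles. Whether the chains of a trimer are made in the same cell cannot be seen in RNA of a whole tumour, where fewer cells of a type and less RNA per cell cannot be told apart.

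**Figure D2:**
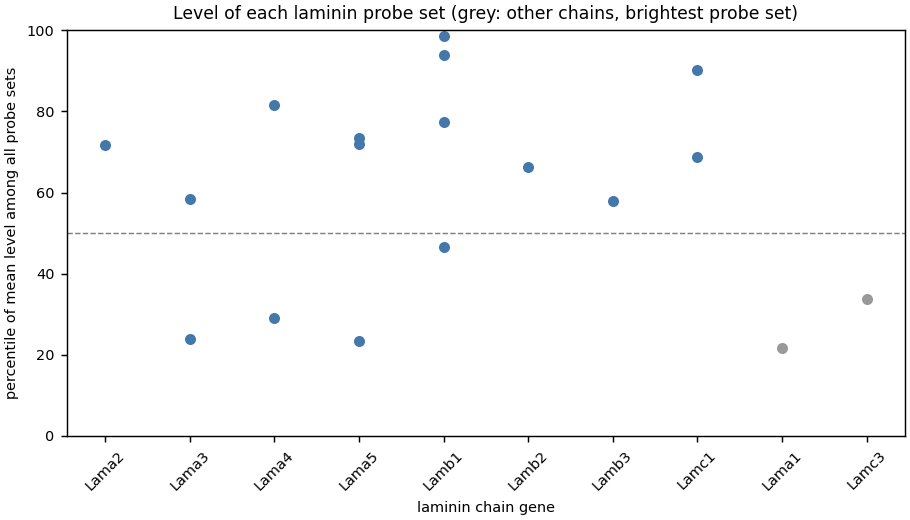
The vertical axis gives the percentile of a probe set's mean level over 6 tumours among all 45037 probe sets, and the horizontal axis the laminin chain gene. Blue points are the 16 probe sets of the 8 chains, grey points the brightest probe sets of Lama1 and Lamc3, and the dashed line is the median. Each of the 8 chains has a point above the line, from the 57.8th percentile for Lamb3 to the 98.6th for Lamb1, and both grey points lie below it.

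Of the alpha chains, Lama4, which builds the laminins of endothelial and fat cell basement membranes, had the probe set with the widest range over the tumours. Its brighter probe set 1424807_at deviated by 78.5, 82.4 and -518 millionths in WT tumours 1, 2 and 3 and by 295, 325 and -262 millionths in TNKO tumours 1, 2 and 3. WT tumour 3 and TNKO tumour 3 were the 2 lowest and TNKO tumours 1 and 2 the 2 highest, so the groups overlapped. The difference was 238 millionths (SE 258, 95% interval -444 to 920), or 0.704 residual SDs, with a limma adjusted p of 0.665 and an exact permutation p of 0.5. Leaving out WT tumour 3 took this difference to 38.6 millionths, and leaving out TNKO tumours 1, 2 or 3 took it to 150, 135 or 429 millionths. The range of this probe set over the 6 tumours was wider than that of 98% of all probe sets. The dimmer probe set 1424808_at deviated far less, by 4.23, 0.148 and -1.40 millionths in WT and by 1.53, 0.975 and -5.48 in TNKO tumours. Its 2 lowest tumours were again WT tumour 3 and TNKO tumour 3, while its highest was WT tumour 1.

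Summed levels of 3 lists of markers of other cell types were lowest in WT tumour 3 and highest in TNKO tumours 1 and 2, as Lama4 1424807_at was. The mean level of 8 fibroblast markers deviated by 52.4, 198 and -2078 millionths in WT and by 698, 1252 and -122 millionths in TNKO tumours. That order of tumours rests mostly on Lum, a matrix proteoglycan gene, which deviated by 319, 1737 and -14907 millionths in WT and by 4783, 8752 and -683 in TNKO tumours. The collagen gene Col1a2, the brightest of the list, deviated by 4.83, 0.06 and -10.0 in WT and by 3.58, 9.99 and -8.45 in TNKO tumours, in another order. Dcn, the decorin gene, was lower in every TNKO than in every WT tumour, by 45.7 millionths (unadjusted p = 0.0039, limma adjusted p = 0.104). These 3 genes, like the single Schwann cell and keratin genes named with Lama2 and Lamb3, were picked after their values were seen. Of the 8 fibroblast markers 7 were higher in the TNKO mean, and their summed level ran from -16626 to 1584 millionths around its mean in WT and from -979 to 10017 in TNKO tumours. Endothelial markers were higher in 11 of 11, and their summed level ran from -1768 to -60.4 millionths in WT and from 2.91 to 1621 in TNKO tumours. The 8 measured adipocyte markers were higher in 8 of 8, with the fatty acid carrier gene Fabp4 at 9.16, 8.76 and 8.54 in WT and 9.62, 9.46 and 9.06 in TNKO tumours. Their summed level ran from -2016369 to -75585 millionths in WT and from -676724 to 2753774 in TNKO tumours. No gene of the 3 lists passed adjustment, and no marker was listed at 0. The lowest percentile was 83.2 for a fibroblast, 30.8 for an endothelial and 19.7 for an adipocyte marker. The part of these cell types in the Lama4 values was not tested.

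**Figure D3:**
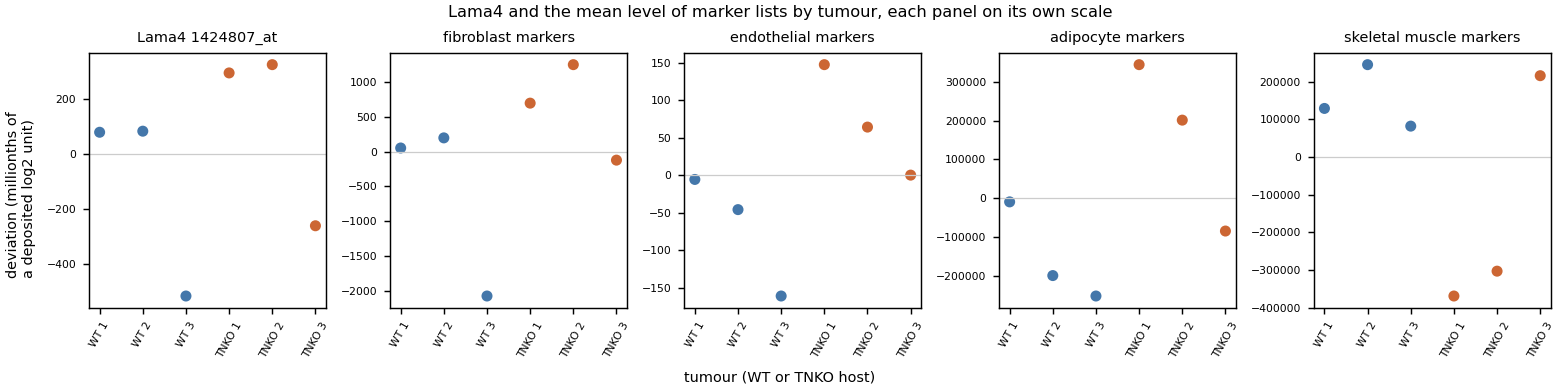
Panels give, by tumour, the deviation of Lama4 1424807_at and of the mean level of 4 marker lists from their 6-tumour means, in millionths of a deposited log2 unit, each on its own vertical scale. Points are tumours (blue WT hosts, orange TNKO hosts). Lama4 and the fibroblast mean, most of whose spread is that of 1 gene, Lum, run from TNKO tumour 2 to WT tumour 3, while skeletal muscle markers are lowest in TNKO tumours 1 and 2.

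The genes whose values were most like Lama4 1424807_at over the 6 tumours were Chtf18, a sister chromatid cohesion factor gene (Pearson r = 0.995), the B cell adaptor gene Bank1 (r = 0.992) and the ribosome assembly gene Mphosph10 (r = 0.991). They were the 3 genes with an r of at least 0.99 among 18192 searched, and they are given as a description, since they were picked as the highest of all genes over 6 tumours. They differed by 3.04 to 11.9 millionths between hosts and did not pass adjustment.

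Lama3, the alpha chain of epidermal and other epithelial laminins, was the chain with a higher probe set and separate groups. Its brighter probe set 1444860_at deviated by -3.06, -0.667 and -0.521 millionths in WT and by 1.20, 1.75 and 1.30 in TNKO tumours. All 3 TNKO tumours lay above all WT tumours. The difference was 2.83 millionths (SE 0.812) or 2.75 residual SDs, with a limma adjusted p of 0.174 and an exact permutation p of 0.1, and it lay within the differences of the hybridisation controls. The second probe set, 1427512_a_at, differed by 0.767 millionths (limma adjusted p = 0.883), with TNKO tumour 2 the lowest and TNKO tumour 3 the highest of the 6. Hair shaft markers were higher in 8 of 8, with a mean level 1597120 millionths above the mean in TNKO tumour 3 and -333215 to -290958 in the other 5, a split that Lama3 1444860_at did not share.

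Lama5, the alpha chain of most adult epithelial basement membranes, was higher in the TNKO mean in 3 of 3 probe sets, while after either scaling of the arrays all 3 were lower. Its brightest probe set 1427009_at deviated by -1.12, -0.82 and -0.415 millionths in WT and by 2.996, -1.76 and 1.12 in TNKO tumours. TNKO tumour 2 was the lowest of the 6, so the groups overlapped, and the difference of 1.57 millionths (SE 1.32) had a limma adjusted p of 0.57. It was 0.462 millionths without TNKO tumour 1 and 2.84 without TNKO tumour 2. The probe sets 1427010_s_at and 1459614_at differed by 0.883 and 0.548 millionths, with limma adjusted p-values of 0.351 and 0.622.

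Lama2, the alpha chain of muscle and Schwann cell basement membranes, was read by 1 probe set. It deviated by 14.01, 0.848 and -10.0 millionths in WT and by -0.969, -14.4 and 10.6 in TNKO tumours, a wide overlap. The difference was -3.21 millionths (SE 9.37, limma adjusted p = 0.891). It turned to 2.99 millionths without WT tumour 1 and to 3.20 without TNKO tumour 2, so it had no stable direction. The skeletal muscle markers split TNKO tumours 1 and 2 from the others (summed level from 984813 to 2944549 millionths around its mean in WT, and from -4431539 to 2592737 in TNKO tumours). In Lama2, TNKO tumour 2 was the lowest, while TNKO tumour 1 lay in the middle of the range and WT tumour 3 near the bottom. The part of muscle in the Lama2 values was not tested. Schwann cell markers, of which 4 of 6 were measured, were higher in 3 and lower in 1, with their mean level highest in TNKO tumour 1 (97.2 millionths). That mean rests on 1 gene, S100b, at 386 millionths in TNKO tumour 1, where Sox10 was second lowest of the 6 tumours at -2.76 millionths.

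Of the beta chains, Lamb1 gave the largest difference in residual SDs among the 16 probe sets. Probe set 1451241_at (level 7.86) deviated by 144, 58.3 and 118 millionths in WT and by -71.3, -122 and -127 millionths in TNKO tumours. Every TNKO tumour lay below every WT tumour. The difference was -213 millionths (SE 28.9, 95% interval -290 to -137), or -5.63 residual SDs. Its exact permutation p was 0.1 and its limma adjusted p of 0.0758 missed the threshold. Over the alternatives run, its adjusted p ranged from 0.0546 to 0.9897. Luminal epithelial markers were lower in 5 of 6, and their summed level ran from 241 to 745 millionths around its mean in WT and from -1170 to 405 in TNKO tumours, so they overlapped where Lamb1 1451241_at did not; their part in its values was not tested.

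The other probe sets of Lamb1 did not show a difference of that size. Probe set 1424113_at (level 9.67) deviated by 3.10, 6.28 and -1.43 millionths in WT and by -2.80, 0.232 and -5.38 in TNKO tumours, a difference of -5.30 (SE 2.59, limma adjusted p = 0.342). The brightest, 1424114_s_at, spanned 0.71 millionths over the 6 tumours and differed by 0.157 (SE 0.328, limma adjusted p = 0.840). These 3 probe sets were designed from the same source sequence, and their ranges lay above those of 96.2%, 68.5% and 8.71% of all probe sets. The remaining probe set, 1446180_at, differed by 0.68 millionths (limma adjusted p = 0.862). Averaged over its 4 probe sets, Lamb1 differed by -54.5 millionths (limma adjusted p = 0.0626), so the sign read for the gene depends on the probe sets used.

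Lamb2 and Lamb3 were lower in the TNKO mean without passing. Lamb2 deviated by 39.0, 13.2 and -21.3 millionths in WT and by 11.2, -10.8 and -31.3 in TNKO tumours, a difference of -20.6 (SE 19.96, limma adjusted p = 0.624). That difference was -6.22 without WT tumour 1 and -10.1 without TNKO tumour 3, and -36.4 and -31.3 without WT tumour 3 and TNKO tumour 1. Lamb3 deviated by 28.4, -14.7 and 38.9 millionths in WT and by -17.8, -8.22 and -26.6 in TNKO tumours, a difference of -35.1 (SE 16.1, limma adjusted p = 0.316). WT tumour 3 was the second lowest for Lamb2 and WT tumour 2 the third lowest for Lamb3, so the groups overlapped in both. Of the 7 pericyte and smooth muscle markers, from cells that lie on the basement membrane of vessels, 4 were higher and 3 lower, and of 6 macrophage markers 4 were higher and 2 lower. The 6 measured basal keratinocyte markers were lower in 4 and higher in 2, with WT tumour 3 at 9013 millionths above their mean level and the other 5 tumours between -2145 and -1249. That mean rests on Krt10, a keratin of the upper epidermal layers, at 52644 millionths in WT tumour 3 and below its own mean in the other 5. Of these 6 markers 3 were highest in WT tumour 3, where Lamb3 was highest, and 3 in TNKO tumour 3, where Lamb3 was lowest. Krt14, the brightest of them, was highest in WT tumour 3 (77.2 millionths). The basal keratins Krt5 and Krt15 were highest in TNKO tumour 3 (916 and 932 millionths), with 257 and 874 millionths in WT tumour 3. The part of keratinocytes in the Lamb3 values was not tested.

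The beta chain genes are shown by the 250 bases before their transcription start. Each of them had a probe set that was lower in the TNKO mean as deposited, as Lama2, Lama4 and Lamc1 also had. The groups were separate in Lamb1 1451241_at and overlapped in the other probe sets of Lamb1. The sequences are RefSeq's, of GRCm38.p6, and capitals mark matches on either strand to the GC box GGGCGG bound by Sp1 family factors.
Lamb1, chr12:31265043-31265292, + strand: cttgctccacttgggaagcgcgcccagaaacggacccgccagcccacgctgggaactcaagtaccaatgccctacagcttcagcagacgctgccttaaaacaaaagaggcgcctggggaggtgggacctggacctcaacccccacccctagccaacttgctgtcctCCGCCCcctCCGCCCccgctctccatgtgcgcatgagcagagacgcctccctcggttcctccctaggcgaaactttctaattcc
Lamb2, chr9:108479612-108479861, + strand: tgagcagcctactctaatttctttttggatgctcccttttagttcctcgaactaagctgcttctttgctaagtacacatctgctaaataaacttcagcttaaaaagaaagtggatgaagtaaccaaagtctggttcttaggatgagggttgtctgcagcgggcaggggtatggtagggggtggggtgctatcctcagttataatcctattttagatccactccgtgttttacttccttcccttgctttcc
Lamb3, chr1:193301744-193301993, + strand: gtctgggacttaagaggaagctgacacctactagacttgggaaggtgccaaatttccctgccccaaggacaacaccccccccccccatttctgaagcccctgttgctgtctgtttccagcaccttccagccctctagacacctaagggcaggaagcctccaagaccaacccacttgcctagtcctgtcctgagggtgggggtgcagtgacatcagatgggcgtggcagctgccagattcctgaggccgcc
The Lamb1 window holds 2 GC boxes, which begin 84 and 75 bases before the start, and those shown for Lamb2 and Lamb3 hold none. RefSeq's table lists 2 starts for Lamb3, of which the first is shown and the other was not searched. Of 32851 windows of the same length 32.7% hold at least 1. The AP-1 site TGANTCA (in 6.75% of windows) and the TATA box TATAAA (in 12.4%) were searched on both strands and are in none of the 3. The G and C content was 62% for Lamb1, 43.6% for Lamb2 and 58.8% for Lamb3. Matches describe these letters and are not evidence of binding. RefSeq's table held windows for 5 of the 8 genes.

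Lamc1, the gamma chain on which nearly all of these trimers depend, was read by 2 probe sets that went opposite ways. The brighter one, 1423885_at, deviated by -1.14, 0.621 and -1.19 millionths in WT and by -0.423, 1.99 and 0.141 in TNKO tumours, a difference of 1.14 (SE 0.903, limma adjusted p = 0.545). It was 0.427 without TNKO tumour 2 and 1.73 without WT tumour 2. The other, 1423886_at (level 7.32, the 68.9th percentile), deviated by 3.78, -0.287 and 1.82 in WT and by 0.096, -2.13 and -3.28 in TNKO tumours, a difference of -3.54 (SE 1.45, limma adjusted p = 0.274). The groups overlapped in both, and the 2 probe sets come from the same source sequence. After either scaling of the arrays both were lower. Their 95% intervals were -1.25 to 3.52 and -7.37 to 0.292 millionths.

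**Figure D4:**
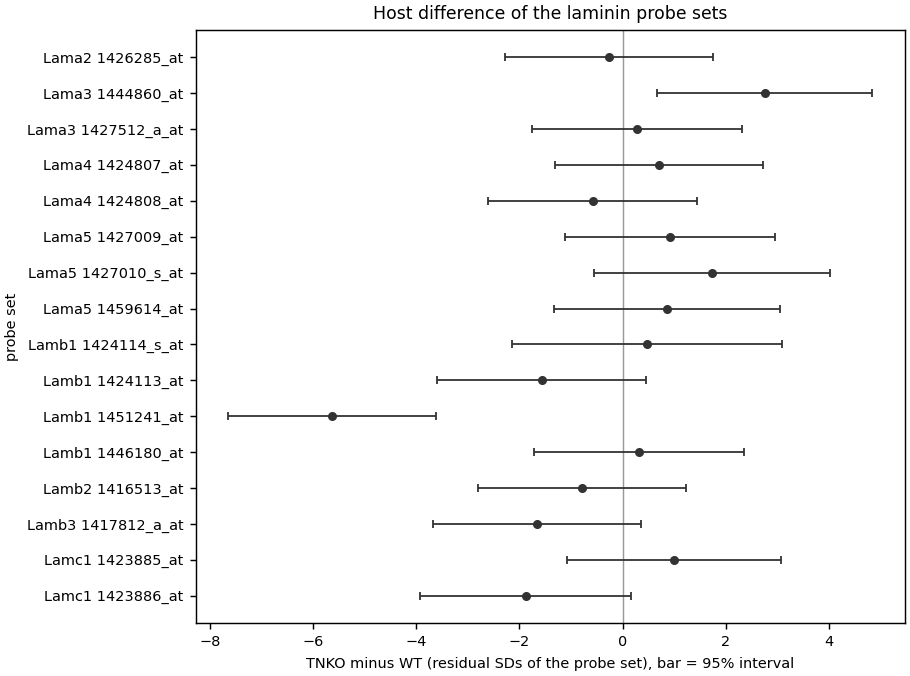
The horizontal axis gives the difference TNKO minus WT in residual SDs of each probe set, with bars for 95% intervals from limma before any adjustment for the number of probe sets, and the vertical axis lists the 16 laminin probe sets. The interval leaves out 0 for Lama3 1444860_at (2.75) and Lamb1 1451241_at (-5.63) as deposited, and neither passed the adjusted threshold. With either scaling of the arrays Lama3 1444860_at is lower.

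The 16 probe sets shared no order of tumours. WT tumour 1 was the highest in 5 of 16 and the lowest in 4, and TNKO tumour 3 was the lowest in 6 and the highest in 3. TNKO tumour 1 and WT tumour 2 were the lowest in 0.

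The genes that work with laminins were read from their brightest probe sets: 49 of 55 listed were measured. By limma 0 of 49 passed, where 0.121% of all genes did, and 8 of 49 had an unadjusted p under 0.05 (5 lower, 3 higher), against 18.4% of all genes. The lists as a whole had a median difference of 0.282 residual SDs, beside 0.283 over all genes. The groups did not overlap in 13 of 49, against 26.1% of all genes.

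Laminin receptors were lower in 5 of 9 and higher in 4, with 1 at an unadjusted p under 0.05. That was Bcam, the Lutheran glycoprotein that binds the alpha5 chain, which deviated by -1.94, -3.39 and -8.15 millionths in WT and by 2.65, 2.33 and 8.51 in TNKO tumours (difference 8.99, SE 2.58, limma adjusted p = 0.174). Mcam, which binds the alpha4 chain, differed by 7.44 millionths (limma adjusted p = 0.278), again with all TNKO above all WT tumours. Itgb1, the beta subunit of most laminin-binding integrins, differed by -12.8 millionths (limma adjusted p = 0.352), with TNKO tumour 3 among the WT values.

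Basement membrane partners, the collagens, nidogens and proteoglycans that laminins sit with, were higher in 9 of 13 and lower in 4, and none had an unadjusted p under 0.05. Col4a1, a chain of the main collagen IV network, deviated by -59.1, -328 and -3653 millionths in WT and by 2109, 1462 and 468 in TNKO tumours. All TNKO tumours lay above all WT tumours, with WT tumour 3 far below the rest, and the difference of 2693 millionths (SE 1169) had a limma adjusted p of 0.295. Col4a6 and Col4a3 differed by 5.02 and 0.729 millionths (limma adjusted p = 0.302 and 0.322). The order of tumours was not that of Lama4, in which TNKO tumour 3 lay below WT tumours 1 and 2.

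Of the anchoring complexes, 12 of 14 listed genes were measured, 6 lower and 6 higher, with 2 lower and 1 higher at an unadjusted p under 0.05. Plec, the plectin of hemidesmosomes, deviated by 9.79, 3.34 and 18.3 millionths in WT and by -9.46, -11.7 and -10.2 in TNKO tumours (difference -20.9, SE 4.09, limma adjusted p = 0.110). The sarcoglycan genes went opposite ways, Sgcd by 3.33 millionths (limma adjusted p = 0.118) and Sgcb by -6.61 (limma adjusted p = 0.184), and in Plec, Sgcd and Sgcb the groups did not overlap.

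Enzymes that glycosylate dystroglycan, which it needs to bind laminin, were measured for 6 of 10, with 2 lower and 4 higher. B4gat1, a glucuronyltransferase of that pathway, deviated by 23.4, 33.2 and 58.5 millionths in WT and by -30.3, -29.4 and -55.4 in TNKO tumours (difference -76.7, SE 12.6, limma adjusted p = 0.0914). Pomgnt1 and Rxylt1 differed by 0.531 and -1.22 millionths (limma adjusted p = 0.360 and 0.590).

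Of 7 proteases that process or activate the processing of laminins, 5 were lower and 2 higher. Plau, the urokinase that turns plasminogen into plasmin, deviated by 178, 143 and 192 millionths in WT and by -153, -252 and -108 in TNKO tumours, a difference of -342 (SE 41.9) or -6.23 residual SDs. Every TNKO tumour was below every WT tumour, and its limma adjusted p of 0.0702 was the smallest of the 49. Bmp1, which trims laminin chains, was higher by 27.3 millionths with separate groups (limma adjusted p = 0.183), and its relative Tll1 differed by -97.9 (limma adjusted p = 0.236). Of the other laminin chains, Lamc3 differed by 3.14 millionths (limma adjusted p = 0.273) and Lama1 by -0.123 (limma adjusted p = 0.907).

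**Figure D5:**
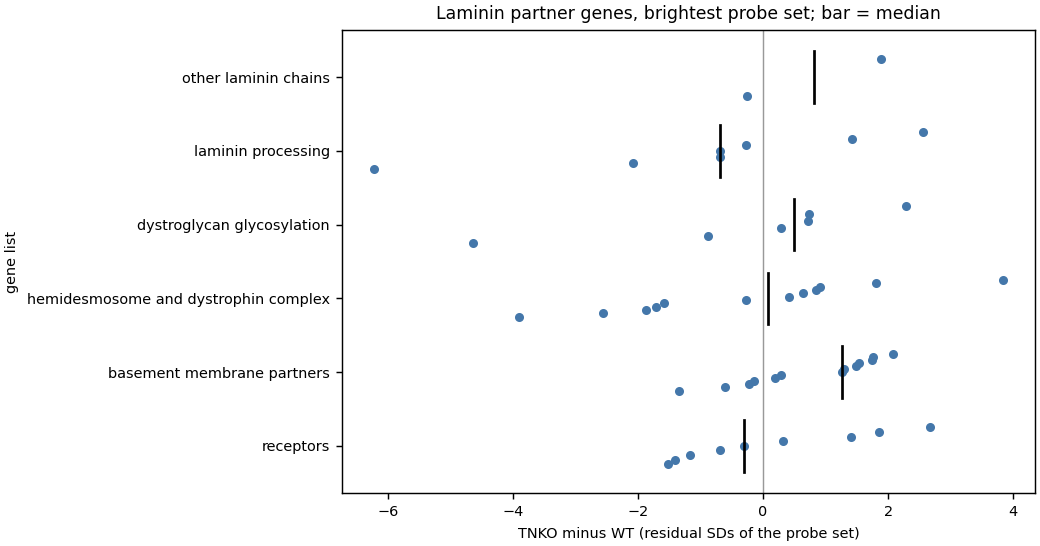
Each point is a laminin partner gene in its brightest probe set, placed by its difference TNKO minus WT in residual SDs (horizontal axis), within its list (vertical axis), and black bars are list medians. Values as deposited spread on both sides of 0, from -6.23 for Plau to 3.84 for Sgcd, and none of the 49 passed adjustment. Scaling the arrays lowers nearly all genes together.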

How the data were processed

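RNA of 6 tumours, 3 from WT and 3 from TNKO hosts, was measured on 1-colour Affymetrix arrays. Per the labels' protocols, 100 ng of total RNA was amplified and biotinylated with a kit primed at the 3' end. The authors deposited 1 value per probe set and array, on a scale taken as log2 from its range. Per the submitters' processing notes, R 2.7.2 was used. How probes were summarized, how arrays were normalized and which logarithm was taken is not given in the sources used here, and differences between arrays are far smaller than usual array values. Control probe sets (64 of 45101) were left out. Genes came from the platform's annotation (2016), with 34945 probe sets of 1 symbol; the brightest probe set stood for a gene.

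TNKO was compared with WT with limma 3.58.1 (R 4.3.3; eBayes neither robust nor with a trend) over 45037 probe sets, two-sided, Benjamini-Hochberg adjusted, threshold 0.05. Exact permutation tests used scipy 1.17.1. The fit was tested on simulated data, drawn with each probe set's mean and residual SD. Of 50 probe sets shifted by 5 residual SDs it recovered 3. At shifts of 10, 20 and 40 residual SDs it recovered 39, 48 and 50 of 50, with 3 false calls among the unchanged probe sets. A difference of about 5 residual SDs would thus mostly be missed in data simulated this way. In the simulation all but the shifted probe sets were unchanged. In the deposited data 20.3% of all probe sets had an unadjusted limma p under 0.05, so the recovery may not carry over to them. The members and lists were chosen with earlier results of these data known. Named were all members, of each partner list up to 3 genes with the smallest unadjusted p, and the 3 genes most like the widest-ranging member. Of each marker list its 2 brightest genes were named as needed. The markers Krt19, Lum, Dcn, S100b, Krt10 and Krt15 were named outside that rule. Alternatives were 2 scalings, a trend, robust moderation, array weights, a filter on dim probe sets, an offset of 16, a replicate block, leaving out each array, and the mean over a gene's probe sets. The labels give no batch.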

Additional observations from a re-analysis of the deposited data

How the results depend on the processing

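Under all alternatives run, 0 laminin probe sets and 0 partner genes passed. Of the 8 chains, 3 were lower as deposited, 8 with quantile normalization or array medians subtracted, 5 with the mean over probe sets, and 2 to 3 with 1 tumour left out. With these scalings the median over all probe sets differed by -538 and -764 millionths, and they turned the same 9 of 16 laminin probe sets to lower. With quantile normalization these were, in millionths, Lama3 1444860_at -309 and 1427512_a_at -472, Lama4 1424807_at -448, Lama5 1427009_at -555, 1427010_s_at -541 and 1459614_at -486, Lamb1 1424114_s_at -1286 and 1446180_at -564, and Lamc1 1423885_at -422. With medians subtracted they were -761 and -763 (Lama3), -526 (Lama4), -762, -763 and -763 (Lama5), -764 and -763 (Lamb1) and -763 (Lamc1). The mean over probe sets turned Lamb1 (-54.5) and Lamc1 (-1.20). Leaving out a tumour turned some of Lama2 1426285_at (range -9.3 to 3.2), Lama3 1427512_a_at (range -0.424 to 2.84), Lamb1 1446180_at (range -0.501 to 1.78) and Lama4 1424808_at (range -3.25 to 0.257), in millionths. Deviations of tumours with the same replicate number correlated at 0.0289, -0.0157 and 0.00531, so the numbers were not taken as pairs. With the replicate block 0 of 16 passed, 6 had an unadjusted p under 0.05, and Lama4 1424807_at and Lamb1 1451241_at had limma adjusted p-values of 0.142 and 0.154. The block changed no call of a laminin or partner gene. Over all probe sets 0 passed under the block, where 79 passed without it, and 7816 had an unadjusted p under 0.05. The count over all probe sets was 79 as deposited, 285 of the brighter probe sets alone, 0 with quantile normalization, and 0, 73, 0, 1, 4 and 6 without WT tumours 1, 2 and 3 and TNKO tumours 1, 2 and 3. Arrays give no depth, and 4 of the 16 laminin probe sets lay below the median level of the table.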
